A study of Mus musculus with 6 samples.

Results

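The Clec genes code for proteins of the C-type lectin superfamily, most of them receptors on the surface of macrophages, dendritic cells and other cells of the immune system. Members were taken by name, as every symbol of the deposited expression table made of Clec, a number, a letter and, in some, a further number. This gave 33 of the 36870 symbols, each listed once. RNA-seq was carried out on bone marrow mesenchymal stem cells (BMMSCs) of C57BL/6 mice, with 3 libraries of control cells and 3 libraries of cells transfected with small interfering RNAs (siRNAs) against Tet1 and Tet2, and the comparison asked how lowering these DNA demethylation enzymes altered gene expression. The BMMSCs were the cells of flushed femur and tibia marrow that stuck to the dish, with no sorting step described for the RNA-seq, and all 6 libraries carry the label of passage 2, although the methods speak of passage 1. The controls received non-targeting siRNA by the labels, although the description of the RNA-seq speaks of vehicle. Nothing says whether libraries of 1 group came from separate mice or cultures, so p-values measure only the spread between these libraries, which may be technical. Levels are RPKM, the reads on a gene divided by its length and by the library's mapped reads, so levels of different genes can be set side by side.

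C-type lectin receptors fold their outer part into a domain that binds sugars, lipids or proteins, and many recognize fungi, mycobacteria or dead cells. Activating members either carry a tyrosine motif of their own, as Clec7a (Dectin-1) does, or pair with the adaptors Fcer1g or Tyrobp (DAP12), and both routes recruit the kinase Syk and, further on, Card9. Inhibitory members such as Clec12a and Clec4a2 carry an ITIM, a tyrosine motif that binds the phosphatases Ptpn6 and Ptpn11. A few members are no receptors at all, among them Clec11a (osteolectin), which marrow stromal cells secrete and which promotes bone formation, and Clec16a, an endosomal protein of mitophagy.

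The Tet enzymes oxidize methylated cytosine, found in mammals mostly where C precedes G (CpG). DNA methylation was not measured in these samples. The 250 bases before the start of 5 genes are printed here from the RefSeq promoters of GRCm38.p6, 5′ to 3′ on the strand of the gene and with each CpG in capitals, because they span the range from no CpG to 15 among genes that rose or fell. Clec4d is at chr6:123261857-123262106 (plus strand), Clec7a at chr6:129472786-129473035 (minus), Clec2d at chr6:129180365-129180614 (plus), Clec11a at chr7:44306960-44307209 (minus) and Clec16a at chr16:10545089-10545338 (plus).
Clec4d: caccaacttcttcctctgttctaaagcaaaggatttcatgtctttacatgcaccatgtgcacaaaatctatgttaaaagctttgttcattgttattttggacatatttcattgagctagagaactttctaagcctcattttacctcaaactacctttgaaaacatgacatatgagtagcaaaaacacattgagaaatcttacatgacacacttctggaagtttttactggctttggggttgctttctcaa
Clec7a: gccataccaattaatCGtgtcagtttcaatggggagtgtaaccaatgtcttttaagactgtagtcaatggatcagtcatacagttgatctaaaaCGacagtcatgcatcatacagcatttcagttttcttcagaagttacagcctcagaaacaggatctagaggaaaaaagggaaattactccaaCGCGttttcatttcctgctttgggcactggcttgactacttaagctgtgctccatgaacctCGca
Clec2d: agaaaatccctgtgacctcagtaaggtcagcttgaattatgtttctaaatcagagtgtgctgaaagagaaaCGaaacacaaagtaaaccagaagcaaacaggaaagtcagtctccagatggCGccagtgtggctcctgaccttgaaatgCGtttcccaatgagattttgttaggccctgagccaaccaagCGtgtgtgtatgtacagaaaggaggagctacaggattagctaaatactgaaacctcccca
Clec11a: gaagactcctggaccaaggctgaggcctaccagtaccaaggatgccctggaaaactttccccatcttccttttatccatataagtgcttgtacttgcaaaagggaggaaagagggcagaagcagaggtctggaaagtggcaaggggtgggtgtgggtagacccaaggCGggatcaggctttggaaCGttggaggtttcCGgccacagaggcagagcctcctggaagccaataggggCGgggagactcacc
Clec16a: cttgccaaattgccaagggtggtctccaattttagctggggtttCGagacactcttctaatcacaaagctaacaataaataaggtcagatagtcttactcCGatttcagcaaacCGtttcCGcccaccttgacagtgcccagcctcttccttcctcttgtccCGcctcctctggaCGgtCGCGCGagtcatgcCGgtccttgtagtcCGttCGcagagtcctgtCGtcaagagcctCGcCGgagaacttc

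Clec4d held 0 CpG, Clec2d and Clec11a held 4 each, Clec7a held 5 and Clec16a held 15. Over the 25 Clec genes with a promoter entry the median was 3 CpG, and over all 27025 promoters it was 6. Of the 25, 14 held at most 3 CpG, as did 38.1% of all promoters. Among the called genes, Clec4d with 0 CpG rose and Clec5a with 3 fell, while Clec16a, which rose, held the most of the 5. Clec4n and Clec10a, which rose as well, had no promoter entry, so neither their CpG nor their motifs were counted. The letters AGGAAGT, a form of the site that the myeloid factor PU.1 binds, were searched on both strands. They stood in 0 of the 25 Clec promoters and in 7.77% of all promoters. This says only that these letters are not in these windows, and shorter or other forms of the site were not searched.

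All 33 members were found in GENCODE M21, and 25 of them lie on chromosome 6 of GRCm38. The Dectin-2 receptors Clec4n (123229843 to 123247021, plus strand), Clec4d (123262111 to 123275265, plus strand) and Clec4e (123281789 to 123289870, minus strand) are neighbours there. Clec2d (129180615 to 129186534, plus strand) and Clec7a (129461591 to 129472779, minus strand) lie further along, and Clec5a lies apart (40574894 to 40585821, minus strand). Clec10a is on chromosome 11 (70156197 to 70170834), Clec11a on chromosome 7 (44302687 to 44306902) and Clec16a on chromosome 16 (10545339 to 10744878). How reads that match several genes were counted, and whether strand was used, is not given in the sources used here. Of the 50-base words in its transcripts, 15.7% for Clec4a4 and 8.69% for Clec4b1 also occur in Clec4a2, so reads of these genes may have been shared out between them. The share was 1.98% for Clec2d (with Clec2g and Clec2i), 0.686% for Clec4n, and 0% for Clec4d, Clec7a, Clec5a and Clec11a.

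The libraries were checked first on the targeted genes and on the labelled cell type. Tet2 stood at 2.57, 4.08 and 3.71 RPKM in controls and at 0.358, 0.238 and 0.202 RPKM after Tet1/Tet2 siRNA, and Tet1 was at most 0.098 RPKM in any library. The macrophage genes were abundant in every library, with the leukocyte antigen Ptprc (CD45) between 47.2 and 59.3 RPKM and the lineage factor Spi1 (PU.1) between 181.3 and 212.5 RPKM. The stromal genes were abundant in controls too. There, Col1a1 averaged 488.4, Col1a2 436.9, Ly6a (Sca1) 152.2, Col3a1 124.6, Cxcl12 38.9, Pdgfrb 30.2, Eng (CD105) 23.8, Prrx1 16.6 and Pdgfra 9.92 RPKM, whereas Nt5e (CD73) was between 0.774 and 1.02 RPKM and Thy1 (CD90) and Lepr averaged less than 0.1 RPKM. RNA of stromal and of macrophage genes was thus abundant together in control libraries labelled as mesenchymal stem cells. The table gives no read totals, and fitting its low values to whole reads put the libraries at 32300000 to 38500000 reads. Between 53.1% and 58.2% of those values then lay within 0.1 of a whole read, where 20% would by chance at a depth fixed beforehand, so this is an estimate only and no counting error can be given.

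Of the 33 Clec genes, 18 reached the minimum mean of 0.1 RPKM (averaged across all 6 libraries) and were tested, among 13266 genes. In Tet1/Tet2 siRNA-treated BMMSCs, 3 of the 18 fell (Clec11a, Clec2d and Clec5a) and 5 rose (Clec4n, Clec4d, Clec10a, Clec7a and Clec16a), with adjusted p below 0.05 in limma, adjusted by Benjamini-Hochberg over all 13266 genes. Over all genes tested, 29.8% fell and 14.7% rose. With the study's thresholds for altered genes, p below 0.05 before adjustment and more than 2-fold, Clec11a was the 1 member lower and Clec4n the 1 member higher. Of all genes tested, 5.63% were lower and 0.95% higher by these thresholds. The control and siRNA libraries did not overlap in 9 of the 18, 3 lower and 6 higher after Tet1/Tet2 siRNA, beside 55.7% of all genes tested. The median log2 fold change of the 18 was 0.05 and that of all 13266 genes was -0.09. These are bulk libraries, in which fewer cells of a type and less RNA per cell cannot be told apart. The 18 are those that passed the minimum, not the family, and their shares were not tested against the rest. Fold changes were taken on the log2(RPKM + 1) scale, which understates the change of genes with low RPKM. With 3 libraries against 3, an exact permutation test of a single gene cannot go below p = 0.1.

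**Figure D1:**
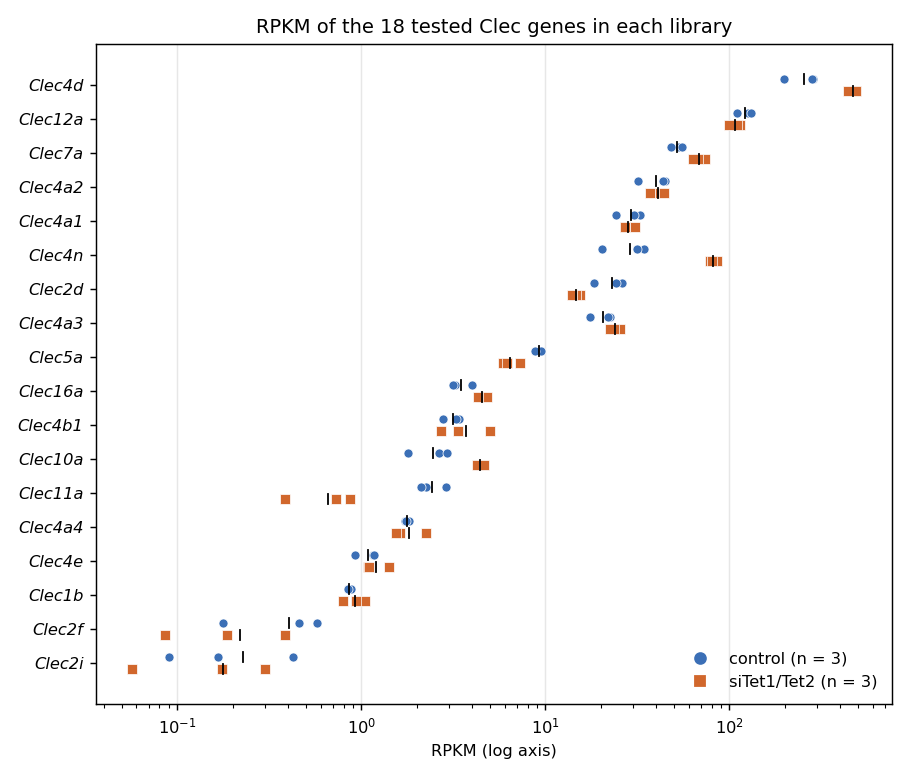
RPKM of the 18 tested Clec genes on a log axis, with 1 point per library (blue circles, 3 control libraries; orange squares, 3 Tet1/Tet2 siRNA libraries) and a bar at each group mean. Clec4d was the most abundant in every library, from 198.9 to 488.3 RPKM, and the groups stand clearly apart for Clec4d, Clec4n, Clec2d and Clec11a.

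The largest rises among the tested Clec genes were those of Clec4n and Clec4d, both activating receptors of the Dectin-2 cluster. Without control replicate 3, Clec10a (log2 fold change 0.75) came before Clec4d (0.74). Clec4n (Dectin-2) binds mannans of fungal walls and signals through Fcer1g. It was at 34.3, 31.3 and 20.3 RPKM in controls and at 77.9, 85.7 and 80.3 RPKM after Tet1/Tet2 siRNA. Every siRNA library stood above every control library, and the lowest siRNA value was more than 2 times the highest control value. The mean rose 2.84-fold, from 28.6 ± 7.35 to 81.3 ± 3.99 RPKM (SD, n = 3 each), a log2 fold change of 1.51 (95% interval 1.12 to 1.89, adjusted p = 0.000195 from limma). Clec4d (MCL, also called Dectin-3) is a receptor for mycobacterial glycolipids that forms complexes with Clec4e. It was at 283.6, 280.4 and 198.9 RPKM in controls and at 488.3, 484.7 and 440.7 RPKM after Tet1/Tet2 siRNA. The groups were again apart, with control replicate 3 the lowest library, as it was for Clec4n. The mean rose 1.85-fold, from 254.3 ± 48.0 to 471.2 ± 26.5 RPKM (SD, n = 3 each), a log2 fold change of 0.90 (95% interval 0.59 to 1.22, adjusted p = 0.000961 from limma). By mean level, Clec4d ranked 193rd among all symbols in controls and 78th after Tet1/Tet2 siRNA, and Clec4n moved from rank 2901 to rank 841.

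Clec4e (Mincle), the partner of Clec4d and a sensor of mycobacterial cord factor and of Sap130 from dying cells, stayed low. It was at 1.15, 1.17 and 0.929 RPKM in controls and at 1.42, 1.08 and 1.11 RPKM after Tet1/Tet2 siRNA. These values overlap, and the log2 difference was 0.08 with a 95% interval from -0.13 to 0.29 (adjusted p = 0.511 from limma). Clec4d was thus listed at 214.1 to 246.2 times the level of Clec4e in controls and at 343.6 to 448.8 times after Tet1/Tet2 siRNA. Clec4n also stood higher relative to Clec4d, with a ratio of 0.102 to 0.121 in controls and 0.160 to 0.182 after Tet1/Tet2 siRNA. Neither ratio overlapped between the groups (exact two-sided permutation p = 0.1 for each, the smallest that 3 against 3 allows).

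The rest of the Dectin-2 cluster showed no called difference. The Clec4a genes code for the DCIR receptors, of which Clec4a2 and Clec4a4 carry an ITIM. Clec4a2 was at 44.9, 31.7 and 43.6 RPKM in controls and at 42.0, 44.3 and 37.0 RPKM after Tet1/Tet2 siRNA, a log2 difference of 0.05 with a 95% interval from -0.25 to 0.35. Clec4a1 was at 32.5, 30.4 and 24.3 RPKM and at 26.9, 30.6 and 27.0 RPKM, a log2 difference of -0.04 (95% interval -0.28 to 0.21). Both sets overlap between the groups. Clec4a3 was at 22.5, 21.8 and 17.6 RPKM in controls and at 25.5, 23.5 and 22.5 RPKM after Tet1/Tet2 siRNA, so close that the lowest siRNA value exceeded the highest control value by less than 0.1 RPKM. Its log2 difference of 0.20 was not called (adjusted p = 0.129 from limma), and in the fit with replicate number as a block it was (adjusted p = 0.0401 from limma). Clec4a4 was less abundant, at 1.8, 1.73 and 1.75 RPKM and at 2.23, 1.63 and 1.55 RPKM (log2 difference 0.01, adjusted p = 0.925 from limma). Clec4b1, a DCAR receptor of the Fcer1g-coupled kind, was at 3.41, 3.26 and 2.78 RPKM in controls and spread from 2.70 to 5.01 RPKM after Tet1/Tet2 siRNA (adjusted p = 0.506 from limma). Its neighbour Clec4b2 did not exceed 0.03 RPKM. Over the 9 genes of the cluster, 8 were tested, of which 2 rose and the other 6 were not called, and their summed level ran from 310.2 to 424.2 RPKM in controls and from 613.6 to 676.5 RPKM after Tet1/Tet2 siRNA, most of it Clec4d.

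**Figure D2:**
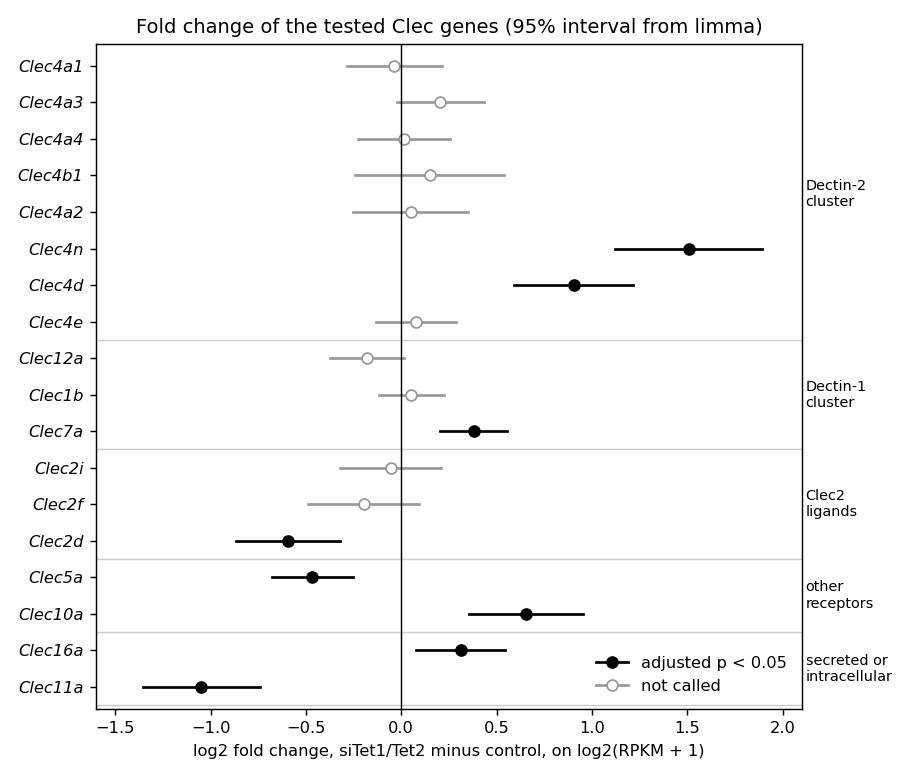
Log2 fold change of each tested Clec gene (siTet1/Tet2 minus control, on log2(RPKM + 1)), with its 95% interval from limma, grouped by class. Filled points mark the 8 genes with an adjusted p under 0.05, from -1.05 for Clec11a to 1.51 for Clec4n.

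In the Dectin-1 cluster, Clec7a (Dectin-1), the receptor for fungal beta-glucan, rose. It was at 53.3, 55.0 and 48.2 RPKM in controls and at 73.4, 67.7 and 63.4 RPKM after Tet1/Tet2 siRNA, which do not overlap. The rise was 1.31-fold, a log2 fold change of 0.38 (95% interval 0.20 to 0.55, adjusted p = 0.00447 from limma). GENCODE M21 lists Clec7a as a polymorphic pseudogene, a class for genes whose reading frame is intact in some strains only. Clec12a (MICL), the inhibitory receptor for uric acid crystals, came next after Clec4d by mean level. It was at 125.9, 130.6 and 109.9 RPKM in controls and at 113.5, 110.1 and 98.8 RPKM after Tet1/Tet2 siRNA. These ranges overlap through control replicate 3, and the log2 difference of -0.18 (95% interval -0.38 to 0.01) was not called (adjusted p = 0.114 from limma). Clec12a passed after rescaling to the same sum (adjusted p = 0.0137 from limma), with the replicate number as a block (adjusted p = 0.0262 from limma) and without control replicate 3 (adjusted p = 0.0157 from limma). Clec1b (CLEC-2), the platelet receptor for podoplanin, was between 0.794 and 1.04 RPKM in the 6 libraries, with a log2 difference of 0.05 (95% interval -0.12 to 0.23).

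The other 3 genes of the Dectin-1 cluster were under the minimum. Clec9a, by which cross-presenting dendritic cells detect exposed actin, was at most 0.075 RPKM. Clec1a, an endothelial receptor for fungal melanin, was between 0.047 and 0.143 RPKM, and the inhibitory Clec12b was at most 0.083 RPKM. The cluster's summed level was 159.2 to 186.6 RPKM in controls and 163.4 to 188.2 RPKM after Tet1/Tet2 siRNA, so these sums overlap. The balance within it did not. Clec7a was 0.421 to 0.439 times the level of Clec12a in controls and 0.615 to 0.647 times after Tet1/Tet2 siRNA.

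The Clec2 genes code for ligands of the Klrb1 (NKR-P1) receptors of natural killer cells. Clec2d, also known as Clr-b and as osteoclast inhibitory lectin, binds the inhibitory Klrb1b. It was at 26.0, 24.1 and 18.5 RPKM in controls and at 15.4, 14.7 and 13.9 RPKM after Tet1/Tet2 siRNA. All siRNA libraries were below all control libraries, and the siRNA libraries were the closer together. Clec2d fell from 22.9 ± 3.93 to 14.7 ± 0.762 RPKM (SD, n = 3 each), which is 1.56-fold lower, with a log2 fold change of -0.59 (95% interval -0.87 to -0.32, adjusted p = 0.0044 from limma). Clec2i (Clr-g) was between 0.057 and 0.427 RPKM and Clec2f between 0.086 and 0.572 RPKM, and in both the groups overlap (adjusted p = 0.718 and 0.237 from limma). For Clec2f this is an estimated 2.2 to 12.1 reads per library, and GENCODE M21 lists it and Clec2j as pseudogenes. Clec2j, Clec2g, Clec2l, Clec2e and Clec2h stood under the minimum, none above 0.143 RPKM in any library. The receptors of these ligands, Klrb1a, Klrb1b, Klrb1c and Klrb1f, were under the minimum too, as were the markers of NK and T cells, of which 0 of 6 could be tested and Ncr1 and Gzma stood at the lowest listed value of 0.001 RPKM throughout.

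Clec5a and Clec10a, a pair of macrophage receptors outside these clusters, moved in opposite directions. Clec5a (MDL-1), which signals through Tyrobp, was at 9.52, 9.49 and 8.77 RPKM in controls and at 7.24, 5.89 and 6.20 RPKM after Tet1/Tet2 siRNA. The groups are apart, and Clec5a fell 1.44-fold (log2 fold change -0.47, 95% interval -0.68 to -0.25, adjusted p = 0.00411 from limma). Clec10a (MGL1, CD301a) binds galactose-type sugars and is used as a marker of alternatively activated macrophages. It was at 2.64, 1.8 and 2.91 RPKM in controls and at 4.29, 4.25 and 4.64 RPKM after Tet1/Tet2 siRNA. With the control libraries the more scattered and all below the siRNA libraries, Clec10a rose 1.79-fold (log2 fold change 0.66, 95% interval 0.36 to 0.95, adjusted p = 0.00411 from limma). Of the words in its transcripts, 9.02% also occur in other genes. The liver receptors Clec4f, of Kupffer cells, and Clec4g, of sinusoidal endothelium, were at most 0.117 and 0.086 RPKM and at 0.001 RPKM in 4 and 5 of the 6 libraries.

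Clec11a, the stromal growth factor, fell furthest. It was at 2.90, 2.26 and 2.11 RPKM in controls and at 0.385, 0.726 and 0.864 RPKM after Tet1/Tet2 siRNA, all of the latter below 1 RPKM and all of the former above 2. Clec11a fell 3.68-fold, from 2.42 ± 0.420 to 0.658 ± 0.247 RPKM (SD, n = 3 each), a log2 fold change of -1.05 (95% interval -1.35 to -0.74, adjusted p = 4e-04 from limma). Marrow stromal genes fell with it, as did 29.8% of all genes tested. Of the 12 on the list, 10 were tested, 9 fell and 1 (Nt5e) did not pass, the median log2 fold change was -2.52, and their summed level was 1127 to 1633 RPKM in controls and 143.8 to 290.5 RPKM after Tet1/Tet2 siRNA. Pdgfra (log2 fold change -2.48), the marrow chemokine Cxcl12 (-3.00), Ly6a (-3.20) and Col3a1 (-3.10) had the lowest adjusted p on the list. Divided by the geometric mean of the stromal list in each library, a scaling chosen after the data had been seen, Clec11a showed a log2 difference of 0.24 in the other direction (adjusted p = 0.123 from limma).

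The receptor through which Clec11a acts on bone-forming cells, integrin alpha 11 with beta 1, fell too. Itga11 was at 23.7, 20.0 and 29.6 RPKM in controls and at 1.72, 2.60 and 4.10 RPKM after Tet1/Tet2 siRNA (log2 fold change -2.77, adjusted p = 4.4e-05 from limma), and Itgb1, which most adherent cells express, fell from 383.3 ± 19.4 to 273.3 ± 26.5 RPKM (SD, n = 3 each, adjusted p = 0.00227 from limma). Both subunits and the ligand fell, and the ratio of Clec11a to Itga11 was 0.0712 to 0.122 in controls and 0.211 to 0.279 after Tet1/Tet2 siRNA. Its ratio to the stromal gene Pdgfrb overlapped, at 0.0562 to 0.108 in controls and 0.104 to 0.138 after Tet1/Tet2 siRNA. Clec16a, the endosomal member, was at 3.21, 3.15 and 4.01 RPKM in controls and at 4.44, 4.80 and 4.32 RPKM after Tet1/Tet2 siRNA. It rose 1.31-fold (log2 fold change 0.31, 95% interval 0.08 to 0.55, adjusted p = 0.0359 from limma), but lost the call when any of 5 of the 6 libraries was left out, all but control replicate 3, with adjusted p from 0.0516 to 0.127 in limma. Its mitophagy partners Rnf41 and Usp8 had log2 differences of -0.08 and 0.07 that were not called. The other secreted or vascular members were scarcely present. Clec3b (tetranectin) reached 0.17 RPKM in 1 siRNA library, Clec14a, a receptor of endothelial cells, was at most 0.013 RPKM, the cartilage gene Clec3a reached 0.018 RPKM in 1 library, and Clec18a stood at 0.001 RPKM in all 6.

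As a sum, the 33 Clec genes came to 649.3, 629.9 and 506.8 RPKM in controls and to 887.9, 885.8 and 807.6 RPKM after Tet1/Tet2 siRNA, which do not overlap. Clec4d made up 39.3% to 44.5% of this sum in controls and 54.6% to 55.0% after Tet1/Tet2 siRNA. A member's part of the sum also shrinks when other members rise, as Clec4d and Clec4n did. Clec12a, whose own level was not called, went from 19.4% to 21.7% down to 12.2% to 12.8%. The part of Clec4n went from 4.01% to 5.28% up to 8.78% to 9.95%, whereas that of Clec7a overlapped between the groups, at 8.21% to 9.52% and 7.64% to 8.27%. Clec4a3, whose own level was not called, held 3.46% to 3.47% of the control sum and 2.65% to 2.87% of the siRNA sum.

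**Figure D3:**
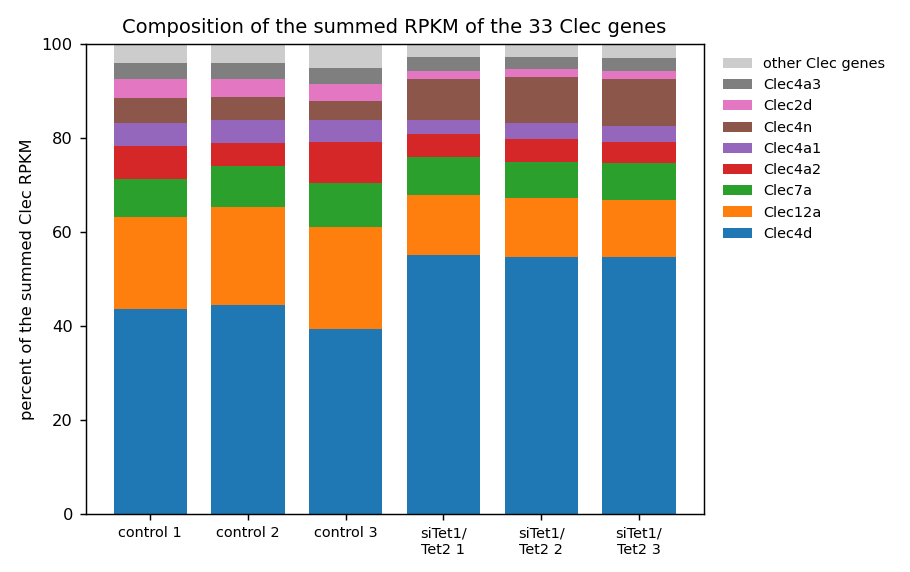
Percent of the summed RPKM of the 33 Clec genes taken by each abundant member, with 1 bar per library. Clec4d takes 39.3% to 44.5% in the 3 control libraries and 54.6% to 55.0% in the 3 Tet1/Tet2 siRNA libraries. The part of Clec12a, whose own level was not called, is smaller in the latter.

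The signalling partners of the receptors were taken from a list of 23 genes, of which 22 were tested. On this list, 5 fell and 8 rose, beside 29.8% and 14.7% of all genes tested, and the median log2 fold change was 0.11. Without siTet1/Tet2 replicate 2, the number that rose was 5. The number that fell was 4 without the minimum on low values and after median ratio scaling. It was also 4 without control replicate 1 or 2 and without any 1 siRNA library. After rescaling to the same sum and without control replicate 3 it was 6. Tyrobp, the adaptor of Clec5a, was at 567.6, 494.9 and 334.4 RPKM in controls and at 1246, 1207 and 1039 RPKM after Tet1/Tet2 siRNA, a log2 fold change of 1.35 (adjusted p = 0.000578 from limma). It rose while Clec5a fell, and the ratio of Clec5a to Tyrobp was 0.0168 to 0.0262 in controls and 0.00488 to 0.00596 after Tet1/Tet2 siRNA. Fcer1g, the adaptor of Clec4n and Clec4d, was at 674.0, 626.8 and 554.2 RPKM in controls and at 514.8, 529.4 and 494.5 RPKM after Tet1/Tet2 siRNA. Fcer1g fell (log2 fold change -0.27, adjusted p = 0.0432 from limma), which was the weakest call among the 5 that fell. Both receptors rose, and Clec4d was 0.359 to 0.447 times the level of Fcer1g in controls and 0.891 to 0.948 times after Tet1/Tet2 siRNA. The kinase Syk, which all these routes share, rose from 45.3, 47.5 and 47.4 RPKM to 80.1, 79.1 and 77.3 RPKM (log2 fold change 0.74, adjusted p = 2.55e-05 from limma). Clec7a rose as well, and its ratio to Syk was 1.02 to 1.18 in controls and 0.821 to 0.917 after Tet1/Tet2 siRNA.

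Below Syk, the adaptor protein Card9 was not called (log2 difference 0.15, adjusted p = 0.189 from limma), and its partners Bcl10 and Malt1 were not either. The lipid phosphatase Inpp5d (SHIP1) rose from 72.0 ± 1.34 to 104.1 ± 10.6 RPKM (SD, n = 3 each). The phosphatases that ITIM receptors recruit parted, with Ptpn6 (SHP-1) at a log2 fold change of 0.26 and Ptpn11 (SHP-2) at -0.44, both called. Among genes that this signalling is known to induce, Egr2 rose 2.36-fold, Tnf fell 2.20-fold and Il10 fell 2.29-fold, all called, and Il1b was under the minimum. Egr3, of low level, was called higher too, from a mean of 0.095 to 0.396 RPKM (log2 fold change 0.34, adjusted p = 0.0332 from limma). The kinase Src fell 2.08-fold.

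**Figure D4:**
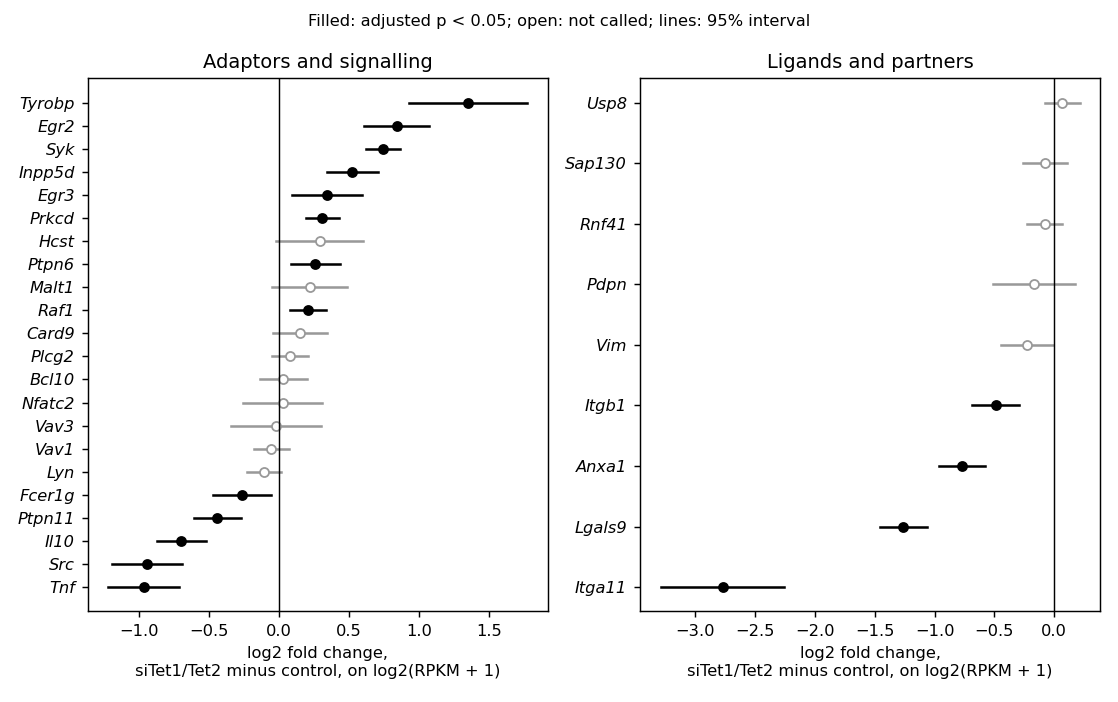
Log2 fold changes with 95% intervals from limma for the 22 tested adaptor and signalling genes (left) and the 9 tested ligands and partners (right), siTet1/Tet2 minus control on log2(RPKM + 1). Filled points have an adjusted p under 0.05, and Tyrobp (1.35) and Itga11 (-2.77) lie at the ends.

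Ligands and partners of Clec proteins numbered 15 on the list, of which 9 were tested. Of these, 4 fell (Itga11, Lgals9, Anxa1 and Itgb1), beside 29.8% of all genes tested, and 5 were not called. After median ratio scaling, 1 of the 5, Usp8, was called higher. The number that fell was 5 with a pseudocount of 0.01, with a minimum of 1 RPKM and after rescaling to the same sum. It was also 5 with eBayes without trend and with the replicate block, and 6 without control replicate 3. Of those not called, Vim had the lowest adjusted p (log2 difference -0.23, adjusted p = 0.0794 from limma). Lgals9 (galectin-9), a lectin of another fold that has been described as a ligand of Clec7a, fell from 173.1 ± 18.8 to 71.3 ± 3.14 RPKM (SD, n = 3 each), a log2 fold change of -1.26 (adjusted p = 1.93e-05 from limma). Anxa1, one of the annexins of dying cells that Clec7a can bind, fell from 776.0 ± 62.8 to 454.1 ± 4.0 RPKM (SD, n = 3 each, adjusted p = 0.000179 from limma). Pdpn (podoplanin), the ligand of Clec1b, was at 5.30, 5.36 and 3.41 RPKM in controls and at 4.27, 4.14 and 3.62 RPKM after Tet1/Tet2 siRNA, which overlap (adjusted p = 0.394 from limma). Sap130, the ligand of Clec4e, was not called. Mmrn2, the ligand of Clec14a, and Plg, that of Clec3b, were under the minimum, as were Clec14a and Clec3b themselves.

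C-type lectin genes with other names were set beside the Clec genes. Of the 44 on this list, 15 were tested. Of the 15, 11 fell, 3 rose and 1 was not called, beside 29.8% lower and 14.7% higher among all genes tested. The median log2 fold change was -0.50. Those that fell included the matrix proteoglycan Vcan (-2.60), the collagen receptor Mrc2 (-2.25), the B-cell and macrophage receptor Cd72 (-1.33) and the endocytic receptor Ly75 (-1.29). Mrc1, the mannose receptor of macrophages, was at 158.3, 166.4 and 185.9 RPKM in controls and at 132.4, 134.9 and 154.8 RPKM after Tet1/Tet2 siRNA, and fell (log2 fold change -0.27, adjusted p = 0.0327 from limma). The 3 that rose were Cd302 (0.70), Layn (0.47) and Cd207 (0.42), langerin. In the control libraries, Mrc1 was thus below Clec4d and above Clec12a, and after Tet1/Tet2 siRNA the order was the same.

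Genes that mark cell types moved alongside the Clec genes, beside 29.8% of all genes tested that fell and 14.7% that rose. On the macrophage list, 11 of 12 genes were found, 2 fell, 6 rose and 3 were not called (Ptprc, Spi1 and C1qa), with a median log2 fold change of 0.20. Its summed level was 5858 to 7795 RPKM in controls and 12834 to 15748 RPKM after Tet1/Tet2 siRNA, mostly Lyz2. Fcgr1 (log2 fold change -1.93) and Aif1 (-0.50) fell. Lyz2 (1.36), Mertk (1.00), Cd68 (0.59) and Cd14 (0.38) were among the 6 that rose. Divided by the geometric mean of this list in each library, a scaling added after the data had been seen, Clec4n (1.39), Clec4d (0.78), Clec10a (0.56) and Clec7a (0.26) still rose, and Clec11a, Clec2d and Clec5a still fell. Clec16a lost its call (0.22, adjusted p = 0.218 from limma) and Clec12a gained one, with a log2 fold change of -0.30 (adjusted p = 0.00512 from limma).

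Other marker lists also differed between the groups, again beside 29.8% of all genes tested that fell and 14.7% that rose. On the neutrophil list, 2 of 6 genes were tested, and both rose, S100a8 (log2 fold change 2.18) and Csf3r (from a mean of 6.92 to 15.0 RPKM). The summed level of the list was 8.70 to 9.25 RPKM in controls and 22.9 to 32.0 RPKM after Tet1/Tet2 siRNA. Ly6g, Elane and Mpo were under the minimum, and S100a9 stood at 0.001 RPKM in every library. On the dendritic cell list, 2 of 7 genes were tested, 1 rose (Itgax, 0.32), and the sum was 7.31 to 9.03 RPKM and 9.49 to 10.5 RPKM, with Ccr7 at 0.001 RPKM throughout. Of the 4 megakaryocyte genes, 3 were tested and 2 rose (Pf4, 1.38, and Ppbp, 0.63), and their sum was 180.2 to 284.3 RPKM and 540.7 to 647.4 RPKM, nearly all of it the platelet factor Pf4. Of the 6 endothelial genes, 5 were tested, 2 fell (Kdr, -0.69, and Emcn, -0.26) and 2 rose (Vwf, 1.28, and Pecam1, 0.23), and their sum was 4.25 to 5.04 RPKM and 7.33 to 7.70 RPKM. The B cell and hepatic lists had 0 genes over the minimum. The part of the macrophage, stromal, neutrophil and other cell types in the differences of the Clec genes was not tested, and the scalings to marker lists do not measure it.

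Across the scalings of the libraries, the median over all genes of the log2 fold change ran from -0.18 (macrophage list) and -0.16 (same sum) to 0.06 (quantile normalization), beside -0.09 as deposited and leaving aside the stromal list. With the stromal list that median was 1.93. The directions of the 8 called Clec genes held under the same sum, median ratio, quantile and macrophage scalings, and the ranking began with Clec4n and ended with Clec11a in each. Scalings other than quantile shift the genes of a library nearly alike, so they could hardly alter this order. Control replicate 3 was the lowest control library for Clec4d, Clec4n, Clec7a, Clec2d, Clec5a, Clec11a and Clec12a, among others. Without it, these named genes kept their directions.

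**Figure D5:**
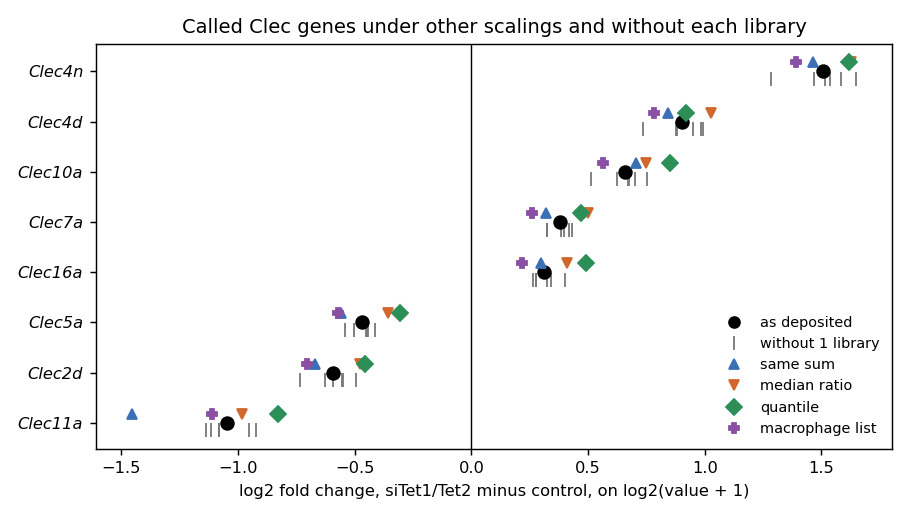
Log2 fold change of the 8 called Clec genes with the values as deposited (black), with each library left out in turn (grey ticks) and after 4 other scalings (coloured marks). No mark crosses 0, and Clec16a lies closest to it among the genes that rose, together with Clec7a.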

How the data were processed

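Total RNA of 3 control and 3 Tet1/Tet2 siRNA-treated BMMSC samples was sequenced by the authors (paired-end, Illumina HiSeq). The authors mapped the reads to GRCm38 and estimated abundance with DNASTAR Lasergene. The deposited values are RPKM by the file header, whereas the methods name FPKM, and the annotation is not given in the sources used here. The table also holds p-values of the authors' own comparison, which were not used. Groups follow the sample titles.

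Of symbols listed more than once (37, with 0 Clec genes among them), only the row of highest mean entered. Genes that averaged 0.1 RPKM or more were tested with limma 3.58.1 in R 4.3.3 (lmFit, then eBayes with trend, two-sided) on log2(RPKM + 1), over all 13266 genes together, with Benjamini-Hochberg adjustment and a call at an adjusted p under 0.05. This procedure was run on simulated data with normal spread, as limma assumes, and with changes added to more abundant genes only. That run could not show how the procedure fares with genes of low RPKM or with other kinds of spread. Every Clec gene above 0.001 RPKM in any library was named, and from each other list up to 4 called genes per direction by lowest adjusted p, plus Ptprc, Tyrobp, Fcer1g, Syk, Card9, Pdpn, Mrc1 and Spi1. A few further genes (Nt5e, Thy1, Lepr, Col1a1, Col1a2, Pdgfrb, Eng, Prrx1, C1qa, Ccr7, Ptpn6, Bcl10, Malt1, Egr3, Sap130, Rnf41, Usp8 and Vim among them) were named after their values had been seen. The members and lists were chosen with earlier results of these data known.

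The correlation of deviations from the group means, over the genes tested, was 0.149, 0.117 and 0.462 for replicates 1, 2 and 3 of both groups. All exceed 0.1, and a further fit therefore took the numbers as pairs. No label explains the numbering, and the deviations of control replicate 1 and siRNA replicate 2 correlated at 0.332. Within groups, libraries correlated at 0.992 to 0.997 over genes and between groups at 0.949 to 0.969. Promoters, transcripts and positions came from RefSeq GRCm38.p6 and GENCODE M21, read with Python 3.11.15, pandas 2.3.3 and numpy 2.4.6.

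The alternatives were pseudocounts of 0.1 and 0.01, no minimum, a minimum of 1 RPKM, rescaling to the same sum, to the median ratio and by quantiles, eBayes without trend, the replicate block, summed rows of a symbol, and each library left out in turn. Scalings to the macrophage and stromal lists were added later.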

Additional observations from a re-analysis of the deposited data

How the results depend on the processing

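Clec4n, Clec4d, Clec10a, Clec7a, Clec11a, Clec2d and Clec5a kept their direction and their call in all 16 alternatives listed with the methods. Clec16a kept its direction and lost its call in 7 of 16: without the minimum on low values (adjusted p = 0.0716 from limma), after rescaling to the same sum (0.117) and in 5 of the 6 fits without 1 library. Quantile normalization, which forces equal distributions on the libraries, gave 8 Clec genes higher in place of 5, adding Clec4a3, Clec1b and Clec4e, 1 altered gene in place of 2, and a median of 0.26 in place of 0.05. Without 1 library in turn, the altered genes numbered 1 to 2, with 1 left without control replicate 1 and without siTet1/Tet2 replicate 1. In both, Clec4n remained and Clec11a fell short of a 2-fold change on the log2(RPKM + 1) scale. The replicate block gave 4 genes lower and 6 higher, adding Clec12a and Clec4a3, and changed no other call among the Clec genes. Scaling to the same sum gave 4 lower (with Clec12a) and 4 higher (without Clec16a), and the median ratio 3 lower and 6 higher. With the median ratio, the 2 altered genes were Clec4n and Clec4d (log2 fold change 1.03), while Clec11a (-0.98) fell short of 2-fold. Scaled to the marrow stromal list, an alternative added after seeing the data, Clec11a turned to 0.24, beside a median of 1.93 over all genes. The cause of these shifts was not tested. The depth of the libraries is known only by estimate. For Clec2f and Clec2i, not called, the 95% intervals of the log2 difference ran from -0.49 to 0.09 and from -0.32 to 0.21.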
